A study of Arabidopsis thaliana with 12 samples.

Results

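The response of wild-type Arabidopsis thaliana leaves to 48 h of chilling was taken as the difference between the 2 arrays titled as wild type (WT) at 48 h and the 2 arrays titled as WT without chilling, which are 4 of the 12 arrays of the series. Every probe set of the Affymetrix ATH1 array other than the maker's controls was a member, which gave 22746 probe sets, each a group of short probes that reads one transcript or a few similar ones. Per the labels, seedlings were 2 weeks old, grew on plates at 23 °C in 16 h of light and 18 °C in 8 h of dark, and were moved to 4 °C. The series asks how WT and the mutant rdm4 respond to chilling at 0, 3 and 48 h. RDM4 is a protein that associates with RNA polymerase II and is known from RNA-directed DNA methylation.

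The WT 48 h group held 2 arrays of chilled WT seedlings and the WT 0 h group 2 arrays of unchilled WT seedlings. The groups used for comparison were rdm4 at 48 h and rdm4 at 0 h, again with 2 arrays each, and the arrays at 3 h. Each sample was RNA from the leaves of at least 30 pooled seedlings of a plate, so an array averages over plants. The labels say that replicates came from different growth chambers. Unchilled plants were sampled at 0 h only, so chilling and 2 more days of age cannot be told apart at 48 h. Not all label fields say the same. WT is of the accession C24 by title and of Col by source name and ecotype. The genotype field of the arrays titled rdm4 names 35S::RDM4, an overexpression construct. The free-text description of WT 48 h replicate 2 names 3 h of chilling, and that of WT 0 h replicate 2 names drought. The SD of the log2 difference between WT 48 h replicate 2 and its titled partner was 0.125, against 0.55 with each of the 4 arrays titled 3 h. For WT 0 h replicate 2 that SD was 0.145 with its titled partner, against 0.35 to 0.81 with the arrays of the other groups.

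Plants that survive frost after a period above freezing undergo cold acclimation. In this process transcription factors of the CBF family and others are known to induce cold-regulated (COR) proteins, which protect membranes and proteins. At the same time sugars and anthocyanins build up, growth slows, and the photosynthetic apparatus is rebuilt, since carbon metabolism slows more in the cold than light capture does. The CBF genes and RDM4 carried no name in the probe annotation used here and were not analysed here.

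In the WT leaves at 48 h, 11459 probe sets, 50.4% of those tested, passed the test (limma, Benjamini-Hochberg adjusted p under 0.05). Of these 5586 (24.6%) were higher and 5873 (25.8%) were lower than at 0 h. A difference of at least 2-fold was reached by 1344 higher probe sets (5.91%) and 1189 lower ones (5.23%), and one of at least 4-fold by 266 and 239. The smallest called difference was 0.15 on the log2 scale, and the median size of the called ones was 0.56. The median log2 difference over all probe sets was -0.02. The probe sets that rose at least 2-fold had a median log2 level of 8.68 at 48 h against 7.03 at 0 h, and those that fell had 7.03 at 48 h against 8.69 at 0 h. In leaf RNA of this kind, fewer cells of a type and less RNA per cell cannot be told apart.

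**Figure D1:**
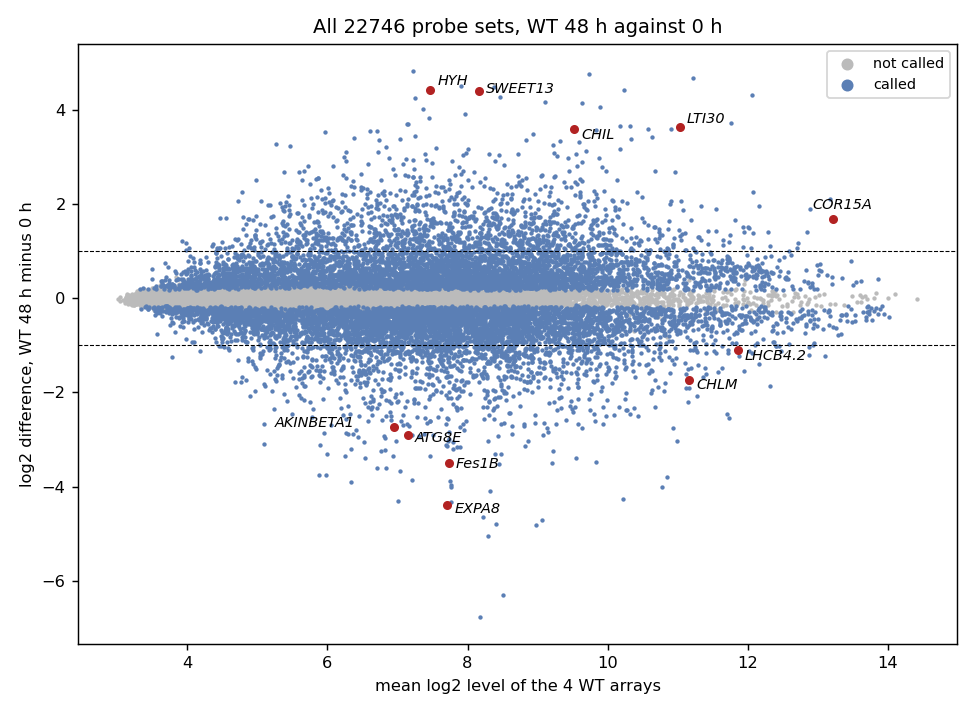
Each point is one of the 22746 probe sets, with the mean log2 level of the 4 WT arrays on the horizontal axis and the log2 difference, WT 48 h minus 0 h, on the vertical axis. Blue points passed the test, grey points did not, dashed lines mark 2-fold, and 11 genes described in the text are in red. The cloud is centred near 0 (median -0.02), with HYH at 4.42 among the named rises and EXPA8 at -4.40 among the named falls.

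The largest differences of all belonged to probe sets that the annotation used here does not name. The unnamed probe set with the largest rise read log2 9.65 and 9.61 at 48 h against 4.84 and 4.79 at 0 h, a difference of 4.81 ± 0.08 (SE). The unnamed probe set with the largest fall read 4.75 and 4.86 at 48 h against 11.50 and 11.63 at 0 h, a difference of -6.76 ± 0.07. Counted by gene, with 1 probe set each, 46.3% of 13356 genes were called, with 2916 higher (21.8%) and 3267 lower (24.5%). The gene lists below are read against those shares. A list member is called measured where the annotation used here names a probe set for it. Other members may be on the array under probe sets without a name.

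Replicate arrays lay close together. The correlation across probe sets was 0.999 between the WT arrays at 48 h and 0.998 between those at 0 h. RNA integrity was read from the 3′ minus 5′ log2 signal of control transcripts. It was 0.52 and 0.57 at 48 h against 0.86 and 0.97 at 0 h for GAPDH, 0.62 and 0.60 against 0.55 and 0.40 for actin, and 1.02 and 1.05 against 1.03 and 1.1 for ubiquitin. Thus the GAPDH value was lower at 48 h, that of actin was higher, and the ubiquitin values of the groups overlapped. The part of RNA integrity in the results was not tested. Rubisco activase (RCA), a defining leaf gene, had log2 levels of 13.77 and 13.69 at 48 h against 13.95 and 13.94 at 0 h. All 4 measured root markers were also called higher at 48 h, as described with the cell wall genes. Of 5 genes often used as references, PEX4 was higher by 0.39 and GAPC2 by 0.26, and 3 were not called.

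Among genes with a symbol, the largest rise was that of HYH, a bZIP factor related to HY5 that acts in light signalling and pigment synthesis. HYH had log2 levels of 9.65 and 9.71 at 48 h against 5.42 and 5.11 at 0 h, a difference of 4.42 ± 0.10 or 21.4-fold (adjusted p = 4.39e-12). SWEET13, a sucrose transporter, had 10.28 and 10.45 at 48 h against 6.08 and 5.85 at 0 h, a rise of 4.39 ± 0.09. In both genes the 2 chilled arrays lay far above the 2 unchilled ones. BETA-VPE, a vacuolar processing protease, rose by 3.07 ± 0.09. NDB2, a dehydrogenase on the outer face of the inner mitochondrial membrane, rose by 2.57 ± 0.10, with 8.67 and 8.53 at 48 h against 6.05 and 6.02 at 0 h. ChiC, a chitinase, rose by 2.56 ± 0.08. JMT, the methyltransferase that makes methyl jasmonate, read 6.16 and 6.30 at 48 h against 3.92 and 3.54 at 0 h. The unchilled JMT level lay among the dimmest 30% of probe sets, so the size of its rise of 2.50 ± 0.16 is uncertain. The same holds for XTH20, UGT78D3 and XTH19, which were also among the 15 largest named rises and were as dim at 0 h.

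The largest named fall was that of EXPA8, an expansin, a protein class that loosens the growing wall. EXPA8 had log2 levels of 5.74 and 5.27 at 48 h against 9.91 and 9.91 at 0 h, a difference of -4.40 ± 0.15 or 21.2-fold. Fes1B, of a family of HSP70 exchange factors, fell by 3.51 to 6.06 and 5.90 at 48 h, against 9.47 and 9.51 at 0 h. HIS1-3, a linker histone variant known to respond to drought, read 6.75 and 6.73 at 48 h against 10.08 and 10.01 at 0 h, a difference of -3.31 ± 0.09. In these 3 genes the chilled arrays lay 21.2-, 11.4- and 9.89-fold below the unchilled ones. ORA47, an ERF-type factor of jasmonate synthesis, fell by 2.86, with 4.86 and 4.83 at 48 h against 7.91 and 7.50 at 0 h. BZIP61, a bZIP factor, fell by 2.26 and AR781 by 2.48. GSTU18, a glutathione transferase, fell by 2.1. CYP71B24, JAL23, scpl31, UGT85A5 and BGLU43 fell by 2.85, 2.36, 2.21, 2.17 and 2.04, each to a level among the dimmest 30% at 48 h, so that the size of these falls is uncertain. Of genes that the annotation names by locus tag only, AT3G55580, listed here as TCF1 of cold signalling, rose most, by 3.69 ± 0.10. AT5G19120 fell most, by 5.05, with 5.81 and 5.73 at 48 h against 10.77 and 10.87 at 0 h.

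**Figure D2:**
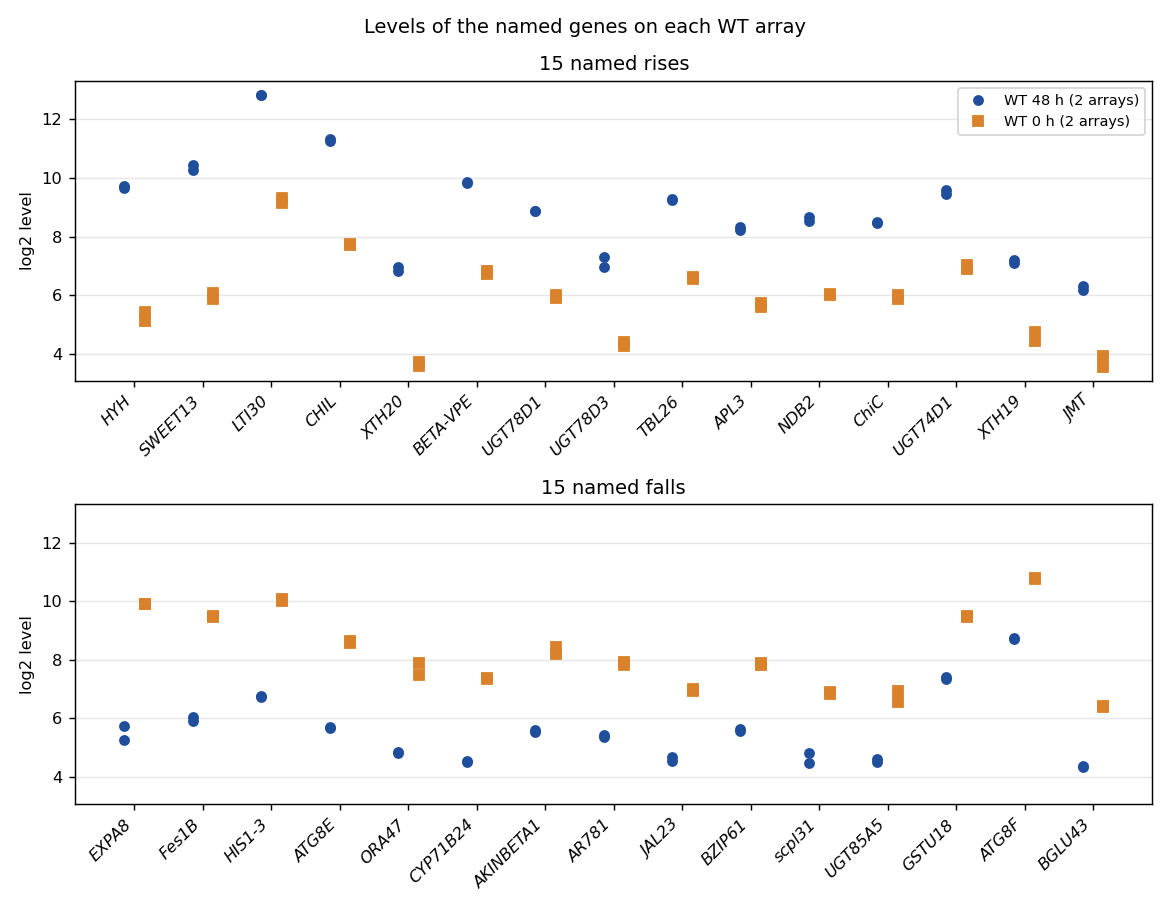
Log2 levels of the 15 largest named rises (top) and the 15 largest named falls (bottom) on each WT array, with the 2 arrays at 48 h as blue circles left of the 2 arrays at 0 h as orange squares. In every gene shown the 2 groups stand apart, as the naming rule required, and the 2 points of a group lie close together, with the widest gap at 48 h in EXPA8 (5.74 and 5.27).

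Of the cold-regulated effector genes, which encode the protective proteins of cold acclimation, 6 were measured. LTI30, COR15A, COR47 and COR15B rose at least 2-fold, and 2 members fell slightly. LTI30, a dehydrin, a hydrophilic protein that binds membranes as cells lose water, had log2 levels of 12.84 and 12.85 at 48 h against 9.30 and 9.15 at 0 h, a rise of 3.62 ± 0.08. COR15A, which protects membranes from the chloroplast stroma, had 14.05 and 14.06 at 48 h against 12.46 and 12.30 at 0 h, a rise of 1.68 ± 0.08. The highest value of any probe set on the 4 arrays was 14.46, close to the chilled COR15A level, and whether this limits the COR15A rise was not tested. Its neighbour COR15B rose by 1.39 ± 0.07 and the dehydrin COR47 by 1.49 ± 0.07. In fold terms LTI30 rose 12.3-fold and the 3 COR genes between 2.63-fold (COR15B) and 3.20-fold (COR15A). COR27, a cold- and clock-regulated gene, had 10.75 and 10.74 at 48 h against 10.95 and 10.99 at 0 h. Its fall of 0.23 (adjusted p = 0.015) depended on single arrays. The adjusted p was 0.0531 on leaving out WT 48 h replicate 1, 0.0718 for WT 48 h replicate 2 and 0.0768 for WT 0 h replicate 2, which left 1 lower member in each case. AT4G33980, listed as COR28, fell by 0.32. Of 23 listed cold signalling and transcription factors, 2 were measured. These were AT3G55580, listed as TCF1, at 3.69 and the zinc-finger gene STZ at -1.25.

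The late embryogenesis abundant (LEA) family, to which dehydrins belong, gave 8 higher members of 10, none lower, and a median of 1.44. LTI30, COR15A, COR47 and COR15B are among these 8 and are members of both lists, so the 2 counts are not independent. M17 read 6.38 and 6.64 at 48 h against 4.28 and 4.43 at 0 h, and LEA4-5 read 6.99 and 7.08 against 4.97 and 5.17. LEA18 rose by 1.24 ± 0.09 and AtLEA4-1 by 0.89 ± 0.15. The unchilled levels of M17, LEA18 and AtLEA4-1 were among the dimmest 30%, so their folds are uncertain in size. The members LEA and M10 were at such levels in both groups and were not called.

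The flavonoid and anthocyanin pathway makes UV-absorbing flavonols and red anthocyanins from phenylalanine. The list holds regulators as well as enzymes of the pathway. Of its 9 measured genes 8 rose, with a median of 1.42. CHIL, a chalcone isomerase-like protein that aids the first steps, had log2 levels of 11.28 and 11.35 at 48 h against 7.74 and 7.72 at 0 h, a rise of 3.58 ± 0.10. DFR, which turns dihydroflavonols toward anthocyanins, had 8.55 and 8.53 at 48 h against 7.32 and 7.39 at 0 h, a rise of 1.19 ± 0.10. The sugar-adding steps rose as well. UGT78D1, the flavonol rhamnosyltransferase, had 8.87 and 8.87 at 48 h against 5.89 and 5.99 at 0 h, a rise of 2.93 ± 0.07. UGT78D2, which adds glucose to flavonols and anthocyanins, had 10.61 and 10.55 against 8.27 and 8.17, a rise of 2.35 ± 0.07. UGT78D3, the flavonol arabinosyltransferase of the same family, rose by 2.80 ± 0.17, and its 0 h level was dim. UF3GT, which adds xylose to anthocyanins, rose by 0.98 ± 0.07, and AT5MAT, an anthocyanin malonyltransferase, by 1.42 ± 0.08. Among the rising members the increase ranged from 0.53 for AT4G14090 to 4.42 for HYH. The 1 member that fell was AT1G23390, listed as KFB-CHS, an F-box protein gene and not an enzyme of the pathway. It read 6.75 and 6.65 at 48 h against 11.46 and 11.37 at 0 h, a difference of -4.72 ± 0.10.

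Sugar transporters of the SWEET family, which let sugars pass down a gradient across membranes, split by member. Of 16 measured, 6 rose, 1 fell and 9 were not called, with a median of 0.17. Besides SWEET13, SAG29 had log2 levels of 9.15 and 9.19 at 48 h against 7.31 and 7.36 at 0 h, a rise of 1.83 ± 0.08. SWEET1, a glucose transporter, had 9.87 and 9.86 against 8.12 and 7.98, a rise of 1.81 ± 0.07, and SWEET2 rose by 1.55 ± 0.09. SWEET11, which exports sucrose toward the phloem together with SWEET12, rose by only 0.43 ± 0.06. SWEET17, a fructose transporter of the vacuole, was the member that fell, by 1.01. Of the 9 members not called, 8 lay among the dimmest 30% of probe sets in at least 1 of the groups. In starch metabolism, APL3, a large subunit of ADP-glucose pyrophosphorylase, which commits sugar to starch, had 8.33 and 8.22 at 48 h against 5.75 and 5.58 at 0 h, a rise of 2.61 ± 0.11. Both measured genes of starch breakdown fell: DPE1, the plastid disproportionating enzyme, by 1.06 and the dikinase PWD (AT5G26570) by 0.69. The sucrose phosphate synthase ATSPS4F rose by 0.82 ± 0.07 and the vacuolar sugar importer TMT2 by 0.79 ± 0.06. Its relative TMT1 had 8.35 and 8.22 at 48 h against 8.47 and 8.40 at 0 h and was not called. ACLB-1 and ACLA-1, subunits of the ATP-citrate lyase that supplies cytosolic acetyl-CoA, rose by 0.77 ± 0.06 and 0.42 ± 0.07, and 2 other subunits were not called.

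Nuclear genes of the thylakoid, the membrane of the light reactions, fell almost without exception. Of 22 measured, 21 were lower, CaS was not called, and 9 fell at least 2-fold, with a median of -0.70 against -0.03 over all genes. PGRL1B, a protein of cyclic electron flow around photosystem I, had log2 levels of 7.94 and 7.85 at 48 h against 9.58 and 9.64 at 0 h, a difference of -1.71 ± 0.07. CYTC6A, a cytochrome of the thylakoid lumen, had 8.25 and 8.39 against 10.07 and 9.99. Assembly factors of photosystem II spread widely. LPA2 fell by 1.5, PAM68 by 1.34, PSB27 by 1.03 and LPA19 by 0.47. LPA1 was at -0.23, and its adjusted p was 0.0671 with WT 48 h replicate 1 left out and 0.0921 with WT 0 h replicate 2 left out. The nuclear NDH subunits NdhS, NdhL and NdhN, of the complex that feeds electrons back to plastoquinone, fell by 1.13, 1.1 and 0.78. Among structural subunits of the photosystems and ATP synthase, PSAN and PSAE-1 of photosystem I fell by 0.63 and 0.49, PSBW and PSBY of photosystem II by 0.43 and 0.28, and ATPC1 of the ATP synthase by 0.29. The 3 genes of the minor antenna protein CP29 spread over this range, with LHCB4.2 lower by 1.11, LHCB4.3 by 0.98 and LHCB4.1 by 0.28.

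Chlorophyll and haem synthesis went the same way, with 10 of 13 genes lower, none higher and a median of -0.50. The lower call of CHLI2 was lost without WT 48 h replicate 1 (limma, adjusted p = 0.0675), WT 48 h replicate 2 (0.103) or WT 0 h replicate 1 (0.162). That of HEMA2 was lost without WT 0 h replicate 2 (limma, adjusted p = 0.0910). CHLM, the methyltransferase of magnesium protoporphyrin in the chlorophyll branch, had log2 levels of 10.32 and 10.28 at 48 h against 12.03 and 12.04 at 0 h, a difference of -1.73 ± 0.07. HEME1 and HEME2, uroporphyrinogen decarboxylases, fell by 1.57 and 1.05, and hemf2, of the following step, by 1.16. PORB, the protochlorophyllide oxidoreductase, fell by 1.00, with 11.61 and 11.60 at 48 h against 12.59 and 12.63 at 0 h. Among Calvin cycle enzymes and their redox regulators, 4 of 6 were lower. TRXF2, a thioredoxin f that switches these enzymes on in light, had 7.86 and 7.89 at 48 h against 9.81 and 9.85 at 0 h, a difference of -1.96 ± 0.12. PRK, phosphoribulokinase, fell by 0.66, whereas RCA fell by 0.22. With WT 48 h replicate 2 left out, the RCA fall was not called (adjusted p = 0.0986). NTRC, a thioredoxin reductase of plastids, rose by 0.28 ± 0.07, and its adjusted p was 0.0595 with WT 0 h replicate 1 left out.

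Of 4 enzymes that help remove hydrogen peroxide, 3 rose and 1 fell. GR1, a glutathione reductase, had log2 levels of 11.04 and 10.98 at 48 h against 9.19 and 9.35 at 0 h, a rise of 1.74 ± 0.08. SAPX, the ascorbate peroxidase of the stroma, had 10.83 and 10.76 against 9.49 and 9.40, a rise of 1.34 ± 0.08. TAPX, the ascorbate peroxidase bound to the thylakoid, had 9.44 and 9.48 at 48 h against 10.35 and 10.35 at 0 h and fell by 0.89. The second glutathione reductase, GR, rose by 0.51 ± 0.07.

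**Figure D3:**
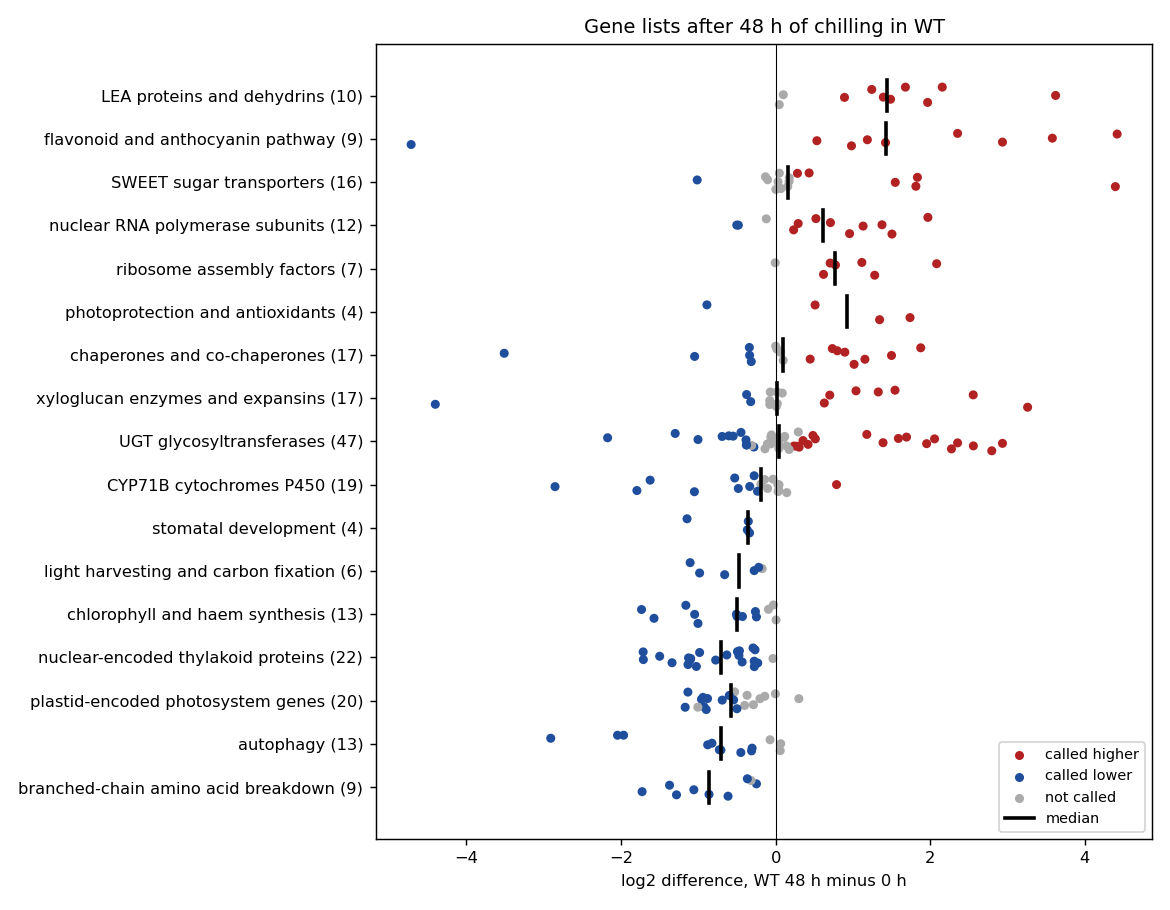
Log2 difference, WT 48 h minus 0 h, for the members of 17 gene lists, with the number measured in brackets. Each point is 1 gene, red where called higher, blue where called lower and grey where not called, and a black bar marks the list's median. Medians run from 1.44 (LEA proteins and dehydrins) to -0.86 (branched-chain amino acid breakdown), and the members of several lists lie on both sides of 0.

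The genes carried by the plastid genome itself were measured less precisely. Of 49, 21 were called lower and 2 higher, and 26 were not called, with a median difference of -0.43. The replicate arrays moved them together. In WT at 48 h replicate 1 lay above replicate 2 in 48 of the 49 genes, by a median of 0.44, and at 0 h replicate 1 lay below replicate 2 in 45, by a median of 0.40. Over all probe sets these medians were -0.006 at 48 h and 0.0057 at 0 h. Between the replicate 1 arrays alone the median plastid difference was 0.04, and between the replicate 2 arrays alone it was -0.92. Their median SE was 0.223, against 0.085 over all probe sets. The arrays of the groups did not overlap in 26 of the 49, of which 24 were lower, against 73% of all probe sets not overlapping and 38.6% of all lower without overlap.

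Examples of plastid genes that fell come first, not ranked by how precisely each was measured. psbE, psbF, psbL and psbJ, which encode small subunits of photosystem II including cytochrome b559, fell by 1.17, 0.96, 0.94 and 0.93. For psbE the levels were 10.29 and 10.04 at 48 h against 11.29 and 11.38 at 0 h, and for psaJ of photosystem I 10.11 and 10.07 against 11.18 and 11.27. ndhD of the NDH complex read 8.14 and 8.09 at 48 h against 9.32 and 9.0 at 0 h. rps18, a ribosomal protein gene, read 9.49 and 9.30 against 10.52 and 10.64. By contrast psbA, for the D1 protein, read 10.29 and 9.95 at 48 h against 10.33 and 10.65 at 0 h and was not called (adjusted p = 0.09). The 2 called higher were rps16, with 9.31 and 8.38 at 48 h against 6.01 and 7.37 at 0 h, and rpoB, with 8.32 and 7.58 against 6.28 and 7.05. The adjusted p of rpoB was 0.156 with WT 48 h replicate 1 left out and 0.167 with WT 0 h replicate 1 left out, against 0.019 with all arrays. Of the 15 plastid ribosomal protein genes, 3 were called lower, but 5 were without WT 48 h replicate 1 and 6 without WT 0 h replicate 1. Conversely, the lower calls of psbB, psbT, ndhE and ndhH, which are among the 21, were lost with either WT replicate 2 array left out, with adjusted p-values from 0.112 (ndhH) to 0.271 (psbB).

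Autophagy delivers parts of the cell to the vacuole for breakdown and is known to rise when sugar is short. Of 13 measured autophagy genes 10 fell and none rose, with a median of -0.71. The largest falls were those of ATG8 genes, whose small proteins coat the autophagosome membrane. ATG8E had log2 levels of 5.69 and 5.70 at 48 h against 8.57 and 8.64 at 0 h, a difference of -2.91 ± 0.11. ATG8F had 8.71 and 8.76 against 10.82 and 10.75, and ATG8C had 6.40 and 6.73 against 8.44 and 8.62. ATG8D and ATG8G fell by 0.88 and 0.73, while APG8A and ATG8B were not called. ATG8H, at -0.31 (adjusted p = 0.011), had an adjusted p of 0.0921 with WT 48 h replicate 1 left out and of 0.138 with WT 0 h replicate 1 left out. ATG3, the enzyme that joins ATG8 to lipid, fell by 0.45.

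The breakdown of leucine, isoleucine and valine in mitochondria, another source of energy when sugar is short, also fell, with 8 of 9 genes lower and a median of -0.86. MCCA and MCCB, the subunits of methylcrotonyl-CoA carboxylase, fell by 1.73 and 1.37. MCCB had log2 levels of 7.23 and 7.17 at 48 h against 8.63 and 8.52 at 0 h. D2HGDH and ETFQO, which pass electrons from such breakdown to the respiratory chain, fell by 1.28 and 1.06, and IVD, isovaleryl-CoA dehydrogenase, by 0.86. AKINBETA1, a regulatory subunit of the energy-sensing kinase SnRK1, had 5.54 and 5.61 at 48 h against 8.45 and 8.19 at 0 h, a difference of -2.74 ± 0.10. With BZIP53, a bZIP factor of low energy, lower by 0.77, all 5 measured genes of the list of dark-inducible and sugar-repressed genes fell. IVD, MCCA and MCCB are members of both lists.

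Of 12 subunits of nuclear RNA polymerases 9 were higher and 2 lower, with a median of 0.61. The higher calls of NRPB6B and NRPE7 were lost on leaving out any 1 WT array. NRPE7, at 0.23, was also not called without the arrays at 3 h (limma, adjusted p = 0.0655). NRPA1 and NRPA2, the 2 largest subunits of RNA polymerase I, which transcribes ribosomal RNA, rose by 1.97 ± 0.08 and 1.5 ± 0.10. NRPA1 had log2 levels of 8.28 and 8.24 at 48 h against 6.34 and 6.24 at 0 h. NRPC2, of RNA polymerase III, rose by 0.96 ± 0.08. Among RNA polymerase II subunits NRPB9B rose by 1.38 ± 0.10 while its relative NRPB9A fell by 0.48, and NRPD7, of the plant-specific polymerases, fell by 0.50. Of 7 ribosome assembly factors 6 rose and none fell, with a median of 0.77. YAO, a nucleolar protein, had 8.99 and 9.10 at 48 h against 6.92 and 7.0 at 0 h, a rise of 2.08 ± 0.07. IMP4 rose by 1.28 ± 0.08, RRP41L by 1.12 ± 0.07 and the helicase PRH75 by 0.77 ± 0.07. DIM1A, an rRNA dimethylase, rose by 0.62 ± 0.09, while its relative DIM1B read 7.30 and 7.42 against 7.29 and 7.44.

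Pentatricopeptide repeat (PPR) proteins bind and edit organelle RNA, and their genes moved in both directions, with 4 higher and 7 lower of 15. With another limma moderation, OTP43, at 0.26, and OTP87, at -0.22, were not called (adjusted p = 0.0596 and 0.0548). The call of OTP87 was also lost on leaving out any 1 WT array (limma, adjusted p from 0.0523 to 0.119). That of OTP43 was lost without WT 48 h replicate 1, WT 48 h replicate 2 or WT 0 h replicate 1 (limma, adjusted p from 0.0682 to 0.157). PPR596 had log2 levels of 9.63 and 9.50 at 48 h against 7.57 and 7.54 at 0 h, a rise of 2.01 ± 0.08. PPR336 and OTP81 rose by 0.99 ± 0.11 and 0.94 ± 0.08. The 3 measured CRR genes, whose proteins edit ndh transcripts in plastids, all fell: CRR22 by 0.79, CRR28 by 0.53 and CRR21 by 0.52.

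Cell wall enzymes changed in opposite directions. Of 17 xyloglucan enzymes and expansins 7 rose, 3 fell and 7 were not called. XTH20 and XTH19, which cut and rejoin xyloglucan, rose by 3.26 ± 0.09 and 2.56 ± 0.11 from dim levels. XTH20 had log2 levels of 6.84 and 6.97 at 48 h against 3.71 and 3.57 at 0 h. EXLA2 rose by 1.54 ± 0.08, EXPA15 by 1.04 ± 0.08 and EXPB3 by 0.63 ± 0.07, set against the fall of EXPA8. EXLA1, EXPA4, EXLB1 and XTH33 were among the members not called. In the TBL family, known for acetylating wall polymers, 9 of 22 rose and 4 fell. The rise of TBL30, at 0.25, was not called without the arrays at 3 h (limma, adjusted p = 0.0621). TBL26 had 9.26 and 9.30 at 48 h against 6.54 and 6.63 at 0 h, a rise of 2.69 ± 0.09, and TBL37 had 8.76 and 8.81 against 6.70 and 6.70. TBL25 and TBL36 fell by 0.97 and 0.70.

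Root markers moved in the same arrays. AT5G17820 had log2 levels of 7.01 and 7.09 at 48 h against 4.74 and 4.77 at 0 h, and PYK10, a glucosidase of roots, had 11.62 and 11.62 against 10.59 and 10.62. The root hair expansins EXPA18 and EXPA7 were higher by 0.43 ± 0.09 and 0.35 ± 0.08, EXPA7 at a dim level in both groups. The mean log2 level over the 4 root markers was 7.16 and 7.18 on the 48 h arrays against 6.14 and 6.16 on the 0 h arrays. Background was not measured, so whether the dimmer of these markers were present in unchilled leaves cannot be said. Their part in the rises of wall and glucosidase genes was not tested.

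Of the UDP-sugar transferases (UGT), which glycosylate hormones, pigments and other small molecules, 18 of 47 rose, 11 fell and 18 were not called. Without WT 0 h replicate 1, 7 fell. Beside UGT78D1, UGT78D2 and UGT78D3, UGT74D1, which acts on auxins, had log2 levels of 9.45 and 9.61 at 48 h against 7.04 and 6.90 at 0 h, a rise of 2.56 ± 0.08. UGT73C1 rose by 2.27 ± 0.12, UGT87A2 by 1.69 ± 0.09 and UGT72E2, which acts on lignin precursors, by 1.59 ± 0.08. UGT84A1 and UGT76B1 rose by 1.95 ± 0.10 and 2.06 ± 0.14 from dim levels. UGT85A4 and UGT73B1 fell by 1.3 and 1.0. Of 11 tau-class glutathione transferases, 5 rose and 2 fell. GSTU22 had 7.46 and 7.48 at 48 h against 5.25 and 5.27 at 0 h, and GSTU26 rose by 1.09 ± 0.10. In the CYP71B family of cytochromes P450 the balance was the other way, with 9 of 19 lower and only CYP71B26 higher, by 0.79 ± 0.07. CYP71B5 and CYP71B28 fell by 1.79 and 1.05.

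Of 21 BGLU glucosidases 5 rose and 6 fell, and 3 rose without WT 48 h replicate 2, without WT 0 h replicate 1 or without WT 0 h replicate 2. BGLU40 had log2 levels of 5.62 and 5.71 at 48 h against 7.26 and 7.35 at 0 h, and BGLU44 had 10.44 and 10.41 against 11.83 and 11.76. PYK10 and BGLU19 rose by 1.01 ± 0.06 and 0.81 ± 0.08. In the VPE family BETA-VPE was the only member called higher, while GAMMA-VPE fell by 0.27. ALPHA-VPE and DELTA-VPE, at 0.17 and 0.20, had adjusted p-values of 0.058 and 0.073. With each array centred on its median, both were called higher as well. Of the 4 NDB dehydrogenases, NDB1 rose by 0.45 ± 0.08 beside NDB2. NDB4, at 0.31 (adjusted p = 0.028), had an adjusted p of 0.250 with WT 48 h replicate 1 left out and of 0.151 with WT 0 h replicate 2 left out.

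Protein-folding genes split, with 8 of 17 chaperones and co-chaperones higher and 5 lower, or 3 lower without WT 48 h replicate 2. Hsp70-2 had log2 levels of 9.62 and 9.53 at 48 h against 7.73 and 7.66 at 0 h, a rise of 1.88 ± 0.07. Hop2, which links HSP70 to HSP90, rose by 1.5 ± 0.08, and Cpn60beta3, a subunit of the plastid chaperonin, by 1.15 ± 0.07. Within the Fes1 family the members differed. Fes1A had 7.57 and 7.70 at 48 h against 6.76 and 6.72 at 0 h, while Fes1C fell by 1.05 beside the larger fall of Fes1B. Of 7 tubulin genes 3 rose and 3 fell, with TUA1 higher by 1.24 ± 0.08 and TUB6 lower by 0.56.

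All 4 measured genes of stomatal development were lower, with a median of -0.36. STOMAGEN, a peptide that promotes stomata, had log2 levels of 8.71 and 8.76 at 48 h against 9.82 and 9.94 at 0 h, a difference of -1.15 ± 0.08. FMA, which closes the guard cell lineage, fell by 0.34 and was the 1 guard cell marker measured. SPCH and MUTE, at -0.35 and -0.37, also depended on single arrays. The adjusted p of SPCH was 0.0687 with WT 48 h replicate 2 left out, and that of MUTE 0.0870 with WT 48 h replicate 1 left out and 0.131 with WT 0 h replicate 2 left out. Of the gibberellin receptors GID1B rose by 0.94 ± 0.10 while GID1A and GID1C fell by 0.59 and 0.65. The auxin-conjugating enzyme WES1 fell by 0.95. AUR1, a mitotic kinase, fell by 0.60. GI, a clock gene of the late day, was higher by 1.00 ± 0.07, with 10.64 and 10.65 at 48 h against 9.68 and 9.61 at 0 h. The defensin gene PDF1.2 rose by 0.50 ± 0.08. BCAT4, of glucosinolate synthesis, fell by 0.73.

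The rdm4 arrays gave differences for the same treatment that share no array with the WT differences. The calls in WT and rdm4 use the same estimate of the spread of each probe set, from all 12 arrays. The calls in the 2 genotypes are therefore not independent. In rdm4, 11494 probe sets (50.5%) were called at 48 h, 22.8% higher and 27.8% lower, and 6.3% rose and 5.56% fell by 2-fold or more. Of the 1344 probe sets that rose at least 2-fold in WT, 1239 (92.2%) were also called higher in rdm4 and 798 (59.4%) by at least 2-fold, while 38 were called lower. Of the 1189 that fell at least 2-fold in WT, 1110 (93.4%) were also called lower in rdm4 and 815 (68.5%) by at least 2-fold, while 42 were called higher. The log2 difference of SWEET13 was 4.39 in WT against 4.23 in rdm4, that of CHIL 3.58 against 3.95 and that of LTI30 3.62 against 3.95. ATG8E was at -2.91 in WT against -2.99 in rdm4, and EXPA8 at -4.40 against -4.24. For these 5 genes the test of the difference between the responses did not pass, and for EXPA8 that difference was -0.17 ± 0.21.

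The size of the response did differ for 5053 probe sets (22.2%), with WT minus rdm4 higher for 2900 (12.7%) and lower for 2153 (9.47%). By at least 2-fold, it was higher for 302 (1.33%) and lower for 620 (2.73%). Without the WT arrays numbered 2, which left 1 array in each WT group, 3210 were called. Among the WT rises of at least 2-fold, the difference passed for 844, and the WT rise was the larger in 625. Among the WT falls, it passed for 602, and the WT fall was the larger in 411. Since these were picked for a large change in WT, those counts are a description. For COR15A the WT rise was 1.68 and the rdm4 rise 2.59, a difference of -0.91 (adjusted p = 8e-05). For HYH the WT rise was 4.42 and the rdm4 rise 6.31, with log2 levels of 9.65 and 9.71 in chilled WT, 10.41 and 10.51 in chilled rdm4, 5.42 and 5.11 in unchilled WT and 4.13 and 4.17 in unchilled rdm4.

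The 10 named genes whose responses differed most included several stress and defence regulators. STZ, a zinc-finger repressor of stress responses, fell by 1.25 in WT, with 7.83 and 7.94 at 48 h against 9.16 and 9.11 at 0 h. In rdm4 STZ rose by 3.03, and the difference of -4.28 ± 0.09 had an adjusted p of 3.54e-11. WRKY53, a factor of leaf senescence and defence, read 4.33 and 4.13 at 48 h against 4.91 and 4.91 at 0 h in WT, a level of dim probe sets at 48 h, and rose by 3.06 in rdm4. RING1, a RING-type ubiquitin ligase, fell by 1.16 in WT and rose by 1.54 in rdm4, and TET8, a tetraspanin, fell by 0.44 in WT and rose by 1.95 in rdm4. CML37, a calmodulin-like calcium sensor, read 3.65 and 3.78 at 48 h against 3.65 and 3.69 at 0 h in WT, both dim, and rose by 3.04 in rdm4. XTH18 was higher by 1.33 in WT against 5.07 in rdm4, and SBT3.3, a subtilase of immune priming, by 0.70 against 3.10. ORA47 fell by 2.86 in WT and by 0.66 in rdm4. In the other direction, M17 rose by 2.16 in WT and fell by 1.71 in rdm4, and BGLU19 rose by 0.81 in WT and fell by 1.65 in rdm4. In 6 of these genes, STZ, WRKY53, RING1, TET8, M17 and BGLU19, both responses were called and ran in opposite directions.

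**Figure D4:**
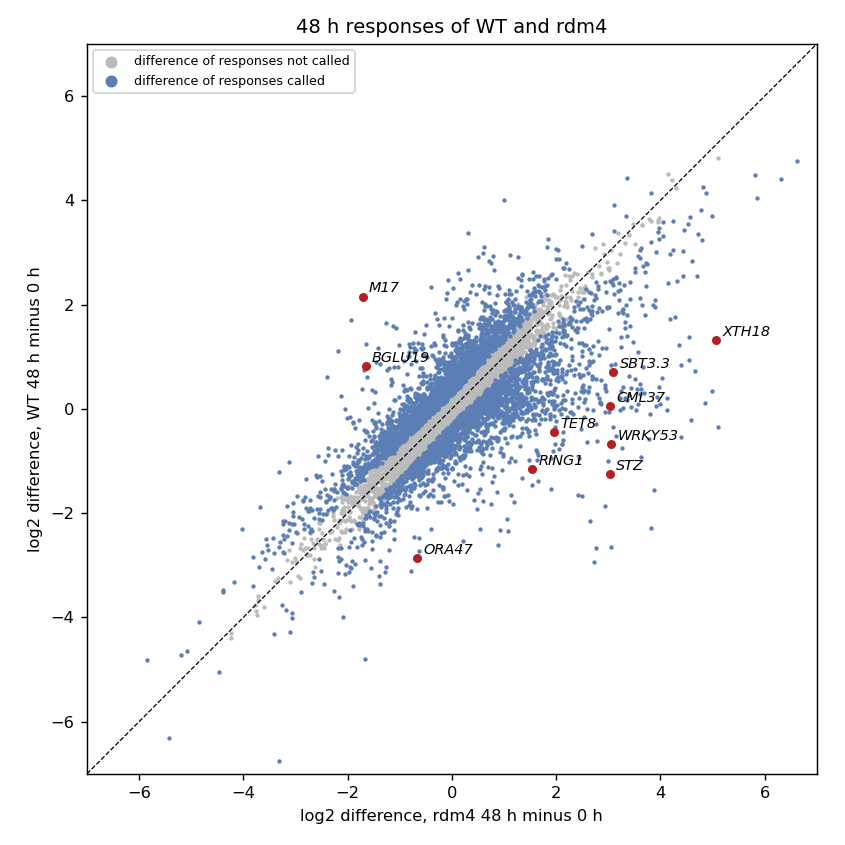
Log2 difference, 48 h minus 0 h, in WT on the vertical axis against that in rdm4 on the horizontal axis, for all 22746 probe sets. Blue points passed the test of the difference between the responses, the dashed line marks equal responses, and the 10 named genes of largest difference are in red. Of the named genes, STZ lies furthest below the line, at -1.25 in WT and 3.03 in rdm4, and M17 furthest above it, at 2.16 and -1.71.

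The arrays at 3 h placed the 48 h response in time, within limits. Since unchilled plants were sampled at 0 h only, chilling and a later time of day cannot be told apart at 3 h. A further limit concerns the labels of these arrays. Among 81 probe sets whose genotype difference was at least 2-fold in the same direction at both 0 h and 48 h, 73 were called in the opposite direction at 3 h and 2 in the same direction. The genotype labels of the 3 h arrays are therefore uncertain relative to those at 0 h and 48 h, and both assignments of the 3 h arrays are given. Which of these labels are right was not tested. Of the 1344 probe sets that rose at least 2-fold by 48 h, 595 (44.3%) had reached at least 50% of that rise on the 3 h arrays labelled WT, and 463 (34.4%) on those labelled rdm4 when set against the WT arrays at 0 h and 48 h. Of the 1189 that fell, 552 (46.4%) had reached at least 50% of the fall on the 3 h arrays labelled WT and 454 (38.2%) on those labelled rdm4. On the arrays labelled WT the median rise was 0.67 at 3 h and 1.43 at 48 h, and the median fall was -0.70 and -1.39. Of the later rises, 113 had the opposite sign at 3 h on the arrays labelled WT and 295 on those labelled rdm4, and of the later falls 138 and 135.

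Genes differed in when they moved. HYH had a mean log2 level of 7.64 on the 3 h arrays labelled WT and 7.53 on those labelled rdm4, between its 0 h and 48 h levels. By contrast UGT78D1 was at 5.80 and 5.65 at 3 h, APL3 at 5.96 and 5.63, and NRPA1 at 6.34 and 5.99, each close to its WT 0 h level under either label. ATG8E was at 7.54 and 7.56 and EXPA8 at 7.81 and 7.92, between their levels at 0 h and 48 h. COR15A was at 12.14 on the 3 h arrays labelled WT and 13.41 on those labelled rdm4, so that whether it had risen by 3 h in WT depends on the label.

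**Figure D5:**
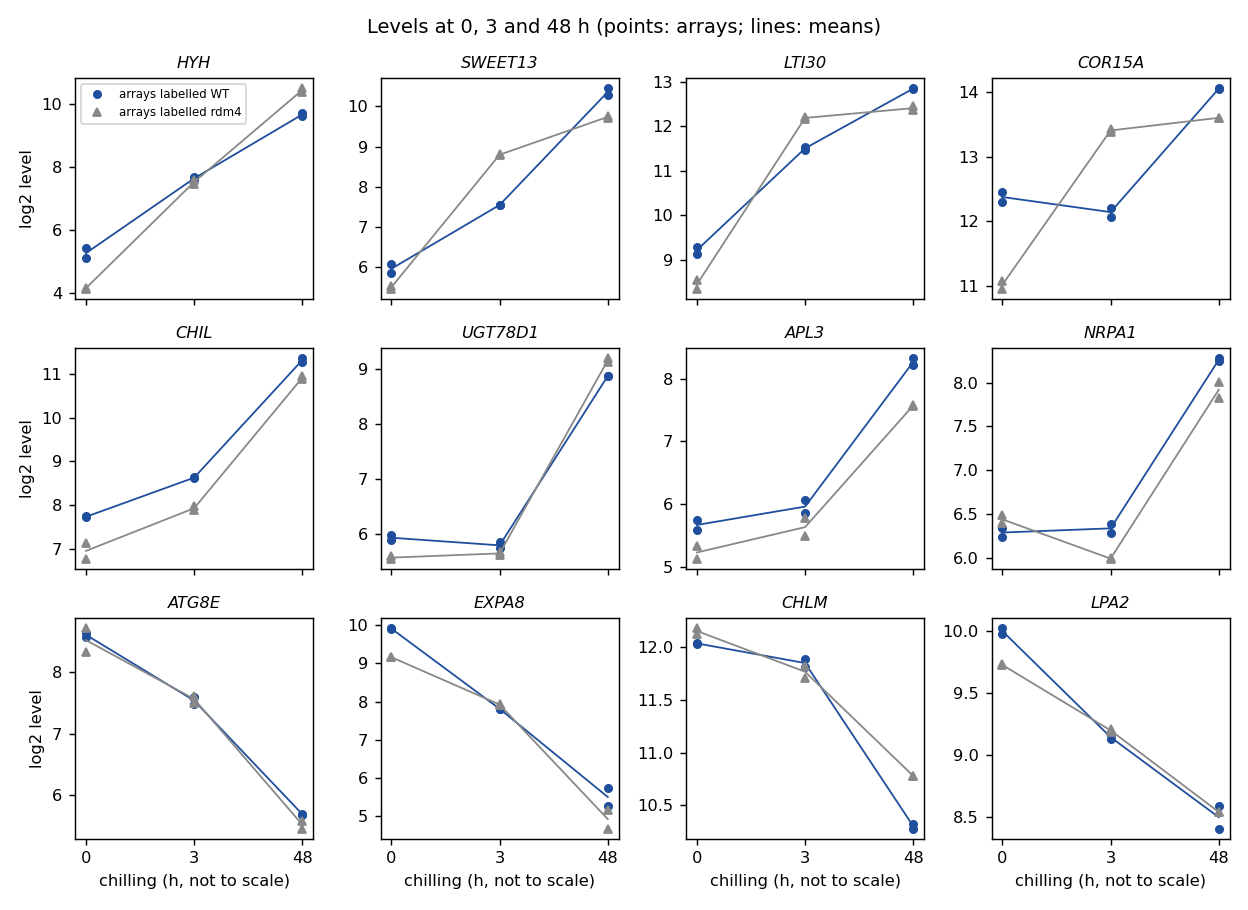
Log2 levels of 12 genes at 0, 3 and 48 h of chilling, with each array as a point and the group means joined by lines, blue for arrays labelled WT and grey for arrays labelled rdm4. The time axis is not to scale. UGT78D1, APL3 and NRPA1 stay near their 0 h level at 3 h and are high at 48 h, while HYH, ATG8E and EXPA8 are already part of the way at 3 h, and COR15A at 3 h differs between the labels (12.14 and 13.41).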

How the data were processed

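The deposited values are on a log2 scale per probe set, from Affymetrix ATH1 arrays hybridised with biotin-labelled leaf RNA. The background correction, normalization and summarisation the authors used are not given in the sources used here, and background was not measured. The values were used as deposited. Of 22810 probe sets, 64 controls were left out. The probe annotation paired 13513 probe sets with 1 gene, 503 with several and 8730 with none, and 13286 of 13356 genes matched RefSeq.

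The limma package (3.58.1, R 4.3.3) fitted 6 group means over all 12 arrays, with empirical Bayes moderation and Benjamini-Hochberg adjustment over the 22746 probe sets. It gave 48 h minus 0 h in WT and in rdm4 and the difference of those responses. A call is an adjusted p under 0.05, 2-fold is a log2 difference of at least 1, and ± marks the standard error. Dim means a group mean below that group's 30th percentile, at log2 4.66 for WT 48 h and 4.67 for WT 0 h. With 2 arrays per group, the number of arrays limits the precision, and p-values measure the spread between these pooled samples.

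Genes were named by rule: the 15 largest rises and 15 largest falls with a symbol, the 5 of each with a locus tag only, members of the gene lists, and the 10 genes with the largest called difference between the WT and rdm4 responses. A gene with several probe sets is given by the brightest. Of 507 members of 27 lists 111 were measured, which means that the annotation named a probe set for them. In 4 lists (abscisic acid signalling, membrane lipids, flowering time, and flower and seed markers) no member was. The other members may be among the 8730 probe sets without an entry and were not analysed. A further 25 lists of gene families were added after the annotation was seen. All members and lists were chosen with earlier results of these data known. Lists are described by counts and medians, with no set test. Alternatives were other samples in the fit, a replicate block, 2 other scalings, a filter on dim probe sets and another moderation. Each array at 0 h or 48 h was also left out in turn, but no single array at 3 h. Promoter sequences were not used here.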

Additional observations from a re-analysis of the deposited data

Results flagged for a closer look

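The genes below are those named by rule, and list members with a response difference of at least 2-fold, for which the test of the response difference, WT minus rdm4, passed (limma, adjusted p under 0.05). Their values are differences of log2 differences, with 2 arrays in each of the 4 groups. For a gene that fell, a negative value means that the fall was larger in WT. Because only such differences are given here, their size is no measure of how much the genotypes differ in general.

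Among the largest named rises in WT, the rise was smaller in WT for HYH (-1.89), UGT78D3 (-0.93), AT3G55580 (-0.88), AT1G06000 (-0.73), AT1G80130 (-0.66), UGT78D1 (-0.65) and AT2G16890 (-0.63). It was larger in WT for XTH20 (1.42), JMT (1.23), BETA-VPE (1.07), XTH19 (0.94) and ChiC (0.89).

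Among the largest named falls, the fall was larger in WT for ORA47 (-2.20), AT3G26510 (-1.92), AR781 (-1.84), AT3G28270 (-1.17), BGLU43 (-1.0), AT1G51400 (-0.96), JAL23 (-0.82), Fes1B (-0.62), AT5G19120 (-0.59) and GSTU18 (-0.44). It was smaller in WT for scpl31 (0.63), BZIP61 (0.51), AKINBETA1 (0.50) and AT1G23390 (0.48).

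The largest named differences were those of STZ (-4.28), XTH18 (-3.75), WRKY53 (-3.73), CML37 (-2.99), RING1 (-2.69), TET8 (-2.40) and SBT3.3 (-2.40), whose responses were the more negative or smaller in WT, and of M17 (3.87) and BGLU19 (2.47), which rose in WT and fell in rdm4.

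In the gene lists, the WT response was the more positive for the LEA genes LEA18 (2.06) and LEA4-5 (1.76), the root markers AT5G17820 (1.67) and PYK10 (1.37), the wall gene EXPB3 (1.26), the gibberellin receptor GID1A (1.06), the glutathione transferase GSTU22 (1.07) and CYP71B26 (1.41). The same held for the glycosyltransferases UGT72E2 (1.63), UGT73B1 (1.43), UGT88A1 (1.2), UGT72E1 (1.08) and UGT76B1 (1.01). AT5G17820 and PYK10 are 2 of 4 root markers measured, and for the other 2, EXPA18 and EXPA7, the difference was not called. XTH20 and XTH19 also rose more in WT, and the part of root markers in those results was not tested.

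The WT response was the more negative, or the smaller rise, for the chaperone genes Fes1A (-1.77) and Hsp70-2 (-1.40), the transporter SWEET2 (-1.78), XTH33 (-1.87), the calmodulin-like CML38 (-1.38), and the ubiquitin ligase genes PUB24 (-1.66) and PUB19 (-1.09). The same held for CYP71B23 (-1.82), CYP71B22 (-1.20), UGT78D2 (-1.37), UGT71B6 (-1.31), UGT76D1 (-1.04) and UGT84A1 (-1.02). The plastid gene ndhG (-1.06) belongs to the set whose replicate arrays lay far apart.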

How the results depend on the processing

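The 11459 calls in WT became 11014 to 11605 when the arrays of other groups, the scaling, the filter, or the moderation was changed or a block of the replicate numbers as labelled was added, and 10075 to 10385 without any 1 WT array, of which 9889 to 10053 were shared with the full fit in the same direction. The 2-fold count of 2533 stayed between 2504 and 2549 under those settings. For rdm4, 11494 calls became 10320 to 11740. Centring each array turned the share of higher calls from 48.7% to 51.1%, and the median difference from -0.02 to 0.0005. No named gene called in the full fit reversed under any alternative run. Only such called genes were compared, so a reversal was unlikely from the start. Some calls were lost, such as 9 with trend and robust moderation and 7 without the 3 h arrays. More were lost on leaving out 1 WT array. These were 25 without WT 48 h replicate 1, 27 without WT 48 h replicate 2, 23 without WT 0 h replicate 1 and 24 without WT 0 h replicate 2.

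The 5053 calls of the difference between the responses ranged from 3842 to 4660 without any 1 array at 0 h or 48 h. They ranged from 4627 to 5790 when the 3 h arrays, the scaling, the filter or the moderation was changed. Without both WT arrays numbered 2, whose descriptions conflict with their titles, that count was 3210, the WT count 9055 and its 2-fold count 2568, with 2 fewer arrays in the fit. This setting was chosen after seeing the data.

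Across probe sets the replicate differences of WT 48 h and WT 0 h correlated at -0.10. This value covers WT only and cannot decide whether equal replicate numbers pair the samples. With the replicate block 11530 were called in WT, 11546 in rdm4 and 5036 for the difference. With the numbers crossed in the WT 0 h group only, chosen after seeing the data, the counts were 11632, 11665 and 5223. Among list counts, the VPE genes called higher were 1, but 2 with the block, with quantile normalization or without dim probe sets, and 3 with centred arrays. RCA was not called with quantile normalization (adjusted p = 0.184), nor rpoB with trend and robust moderation (0.110). The causes were not tested.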

Other observations

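Genes that lie next to each other on a chromosome were compared in WT by their order in RefSeq. Of 5818 neighbouring pairs with both genes measured, 91 had both at least 2-fold different at 48 h, 59 in the same direction and 32 in opposite directions. Of the neighbours of a gene with such a difference 13.7% also had one, against 10% of all genes. COR15B and COR15A formed such a pair, at 1.39 and 1.68. A run of neighbours chosen after its values were seen was lower at 48 h, with AT2G29290 at -3.50, AT2G29300 at -2.98, AT2G29310 at -2.34 and AT2G29320 at -1.09. Probe sets of similar neighbouring genes can read each other's transcripts, and the part of this in these values was not tested.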
